A study of Mus musculus with 8 samples.

Results

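The genes described here are 9 members of the CC chemokine system, the ligands Ccl2, Ccl3, Ccl4, Ccl5, Ccl7, Ccl8 and Ccl12 and the receptors Ccr1 and Ccr2. They were taken by symbol from the 21848 genes counted in each library, and all 9 were found. Single-cell RNA sequencing was performed on the cortical injury site of 8 mice 6 days after photothrombotic ischemia (PT), with 1 library per mouse. The 4 ancrod mice received 2.4 U per day of ancrod, a snake venom enzyme that removes fibrinogen from the blood, from an osmotic pump placed 2 days before PT, and the 4 control mice received saline from the same kind of pump. The comparison asks how fibrinogen depletion changes cells of the lesion. No uninjured mouse is part of these data, so that every level below belongs to injured cortex, and both groups carried a pump and underwent PT. The labels give the genotype Bl/J6 and female sex, whereas the methods of the study name C57BL/6N mice of both sexes aged 8 to 12 weeks, and this was not settled. Mice 1 to 3 of each group formed injury and sequencing batch 1 and mouse 4 of each group formed batch 2. The tissue included spared cortex next to the lesion, the meninges had been removed, and cells were neither sorted nor enriched before loading, apart from lysis of red cells and removal of myelin.

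CC chemokines are small secreted proteins that bind G protein-coupled receptors and draw leukocytes along their gradients. Ccl2, Ccl7, Ccl8 and Ccl12 belong to the monocyte chemoattractant proteins, and Ccl2, Ccl7 and Ccl12 act on Ccr2, the receptor with which inflammatory monocytes leave the bone marrow and enter injured tissue. Ccl3, Ccl4 and Ccl5 form the macrophage inflammatory protein branch, and Ccl3 and Ccl5 act on Ccr1. In the injured brain microglia are a known source of Ccl3 and Ccl4, and blood-derived myeloid cells are the best known carriers of Ccr1 and Ccr2.

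All 7 ligands lie on chromosome 11 and both receptors on chromosome 9 (GRCm39). Ccl2 (chr11:81926397-81928279), Ccl7 (chr11:81936532-81938351), Ccl12 (chr11:81992645-81994466) and Ccl8 (chr11:82006007-82007625) follow each other on the plus strand, with gaps of 8.25 kb, 54.3 kb and 11.5 kb. Ccl5 (chr11:83416602-83425942, minus strand), Ccl3 (chr11:83538670-83540191, minus strand) and Ccl4 (chr11:83553383-83555509, plus strand) form a second group 1409 kb from Ccl8. Ccr1 (chr9:123762161-123768734, minus strand) and Ccr2 (chr9:123901982-123913594, plus strand) lie 133 kb apart. Each ligand gene has 3 exons and each receptor gene has 2 exons in its canonical GENCODE transcript.

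The 250 bases before the transcription start are shown for the neighbours Ccl2, Ccl7, Ccl12 and Ccl8, which differed in the cells that held their transcripts, and for Ccl5, whose pattern stood apart from the other ligands. Each is written 5′ to 3′ in the direction of transcription, lies just before the start of the canonical transcript, and was read from GRCm39. Capitals mark matches to an NF-kB consensus, to the AP-1 letters TGANTCA, to the STAT letters TTCNNNGAA, all searched on both strands, and to TATAAA on the strand of the gene.
Ccl2: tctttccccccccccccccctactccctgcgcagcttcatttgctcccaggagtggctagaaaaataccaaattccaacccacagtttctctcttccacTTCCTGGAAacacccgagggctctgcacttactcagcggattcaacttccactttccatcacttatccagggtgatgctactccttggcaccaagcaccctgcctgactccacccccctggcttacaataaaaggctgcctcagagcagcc
Ccl7: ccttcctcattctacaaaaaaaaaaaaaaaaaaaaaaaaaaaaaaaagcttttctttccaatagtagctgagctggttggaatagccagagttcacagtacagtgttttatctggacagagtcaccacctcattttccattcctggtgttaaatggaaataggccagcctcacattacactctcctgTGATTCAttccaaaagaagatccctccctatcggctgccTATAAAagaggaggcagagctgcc
Ccl12: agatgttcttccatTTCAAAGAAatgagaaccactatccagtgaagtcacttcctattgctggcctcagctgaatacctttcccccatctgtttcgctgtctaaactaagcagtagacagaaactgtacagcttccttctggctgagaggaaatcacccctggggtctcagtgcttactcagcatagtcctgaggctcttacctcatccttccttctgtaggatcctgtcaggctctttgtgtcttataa
Ccl8: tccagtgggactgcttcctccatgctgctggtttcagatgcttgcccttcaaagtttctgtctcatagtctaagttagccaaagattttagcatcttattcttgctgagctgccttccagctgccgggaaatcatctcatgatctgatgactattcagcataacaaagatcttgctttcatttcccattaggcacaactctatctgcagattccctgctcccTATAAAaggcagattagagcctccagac
Ccl5: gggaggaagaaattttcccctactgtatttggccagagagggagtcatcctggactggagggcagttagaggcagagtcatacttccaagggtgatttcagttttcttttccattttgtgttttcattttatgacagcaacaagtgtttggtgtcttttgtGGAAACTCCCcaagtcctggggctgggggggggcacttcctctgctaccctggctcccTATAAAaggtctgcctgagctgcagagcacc

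The Ccl2 stretch (chr11:81926147-81926396) held 1 STAT match and the Ccl12 stretch (chr11:81992395-81992644) held 1. The Ccl7 stretch (chr11:81936282-81936531) held 1 AP-1 match and 1 TATAAA, and the Ccl8 stretch (chr11:82005757-82006006) held 1 TATAAA. The Ccl5 stretch (chr11:83421346-83421595) held the 1 NF-kB match among the 9 genes, together with 1 TATAAA. The same stretches of Ccl3, Ccl4, Ccr1 and Ccr2 held none of these letters. Of the 250-base stretches of 21616 genes, 5.14% held the NF-kB consensus, 6.18% the AP-1 letters, 7.7% the STAT letters and 8.05% TATAAA. A match describes the letters and not a bound site.

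Of the droplets in the 8 libraries, 46216 held at least 2000 UMIs with under 20% of them mitochondrial and were used as cells, 5555 to 6277 per control mouse and 5080 to 6175 per ancrod mouse. The libraries held 97861434 to 122758649 UMIs in control mice and 126682918 to 142139441 in ancrod mice, so the depths of the groups did not overlap, and the median cell held 10653 to 14406 and 13930 to 17575 UMIs. Of 45940 distinct barcodes, 274 occurred in more than 1 library. Cells were clustered without chemokine or chemokine receptor genes, and clusters were named from marker genes. In 14 classes every mouse had at least 10 cells, and 6176 cells stayed unnamed. Levels are counts per 1e6 UMIs (CPM) of all cells of a class in a mouse, given as mean ± SD over mice. In sums over all cells, fewer cells of a type and less RNA per cell cannot be told apart. Droplets of at most 100 UMIs gave the level of free RNA, which was high for the microglial ligands, with 1065 ± 287 CPM for Ccl3 and 2435 ± 658 for Ccl4.

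Ccl3 and Ccl4 were mainly microglial transcripts in this tissue, which included spared cortex. Ccl3 stood at 2063 ± 494 CPM in the 17402 microglia-like cells (n = 8), from 1358 to 2819 over the 8 mice, and Ccl4 at 4771 ± 1061, from 3257 to 6477. The next class for both was the border-associated macrophage-like (BAM-like) cells, with 741 ± 177 CPM of Ccl3 and 1387 ± 270 of Ccl4, and no mouse of the one class reached the range of the other. The inflammatory macrophage-like cells (Ccl3 603 ± 123, Ccl4 1018 ± 171) overlapped with the BAM-like cells. Neutrophil-like cells stood at 581 ± 335 CPM of Ccl3, with a highest mouse at 1269, and at 757 ± 482 of Ccl4. NK cell-like cells stood at 948 ± 482 CPM of Ccl4, with a highest mouse at 1867. Microglia-like cells held 84.8 ± 3.3% of all Ccl3 UMIs and 87.0 ± 2.9% of all Ccl4 UMIs. The 12 immediate early genes, which also respond to tissue dissociation, summed to 9681 to 11786.5 CPM in control microglia-like cells and 9396.5 to 11990 in ancrod. The part of dissociation in these ligand levels was not tested.

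After thinning each cell to 2000 UMIs, 71.3% of microglia-like cells had a Ccl3 UMI and 82.7% a Ccl4 UMI. The shares for Ccl3 and Ccl4 were 51.2% and 54.0% in BAM-like, 45.6% and 48.5% in inflammatory macrophage-like and 34.9% and 35.6% in neutrophil-like cells. In NK cell-like cells they were 19.7% and 48.5%. In endothelial-like cells, which are not known as a source of either, they were 3.07% and 7.73%. Without thinning these shares were 89.5% and 93.6% in microglia-like cells, with a median of 15511 UMIs, and 16.4% and 35.9% in endothelial-like cells, with a median of 9966 UMIs. Microglia-like cells with a Ccl3 UMI had a Ccl4 UMI in 91.1 ± 3.5% of cases, against 62.1 ± 5.8% of those without, and the order was the same in 8 of 8 mice.

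The ratio of Ccl3 to Ccl4 UMIs was taken in each mouse. It was 0.431 ± 0.023 in microglia-like cells (n = 8), from 0.393 to 0.459, and 0.439 ± 0.028 in free RNA. In NK cell-like cells it was 0.189 ± 0.076, with a highest mouse at 0.323, and in T cell-like cells 0.192 ± 0.078, with a highest mouse at 0.339, both below the range of microglia-like cells. Killer and helper lymphocytes are known to secrete Ccl4. Inflammatory macrophage-like cells, at 0.593 ± 0.066 with a lowest mouse at 0.505, were above that range. The astrocyte-like (0.436 ± 0.111), fibroblast-like (0.421 ± 0.083) and endothelial-like cells (0.380 ± 0.063), whose mean levels of Ccl4 were 43.6, 68.9 and 37.3 CPM, overlapped with microglia-like cells, and so did neutrophil-like cells, which spread from 0.407 to 1.78.

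Ccl12, a mouse ligand of Ccr2, was shared by both resident macrophage populations of the brain. It stood at 556 ± 74 CPM in microglia-like cells and at 556 ± 164 in BAM-like cells, ranges that overlapped, and at 55.3 ± 14.3 in inflammatory macrophage-like cells, a 10.1-fold lower level whose range did not reach that of microglia-like cells. As microglia-like cells outnumbered BAM-like cells, they held 84.5 ± 2.2% of the Ccl12 UMIs and BAM-like cells 4.57 ± 1.66%.

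**Figure D1:**
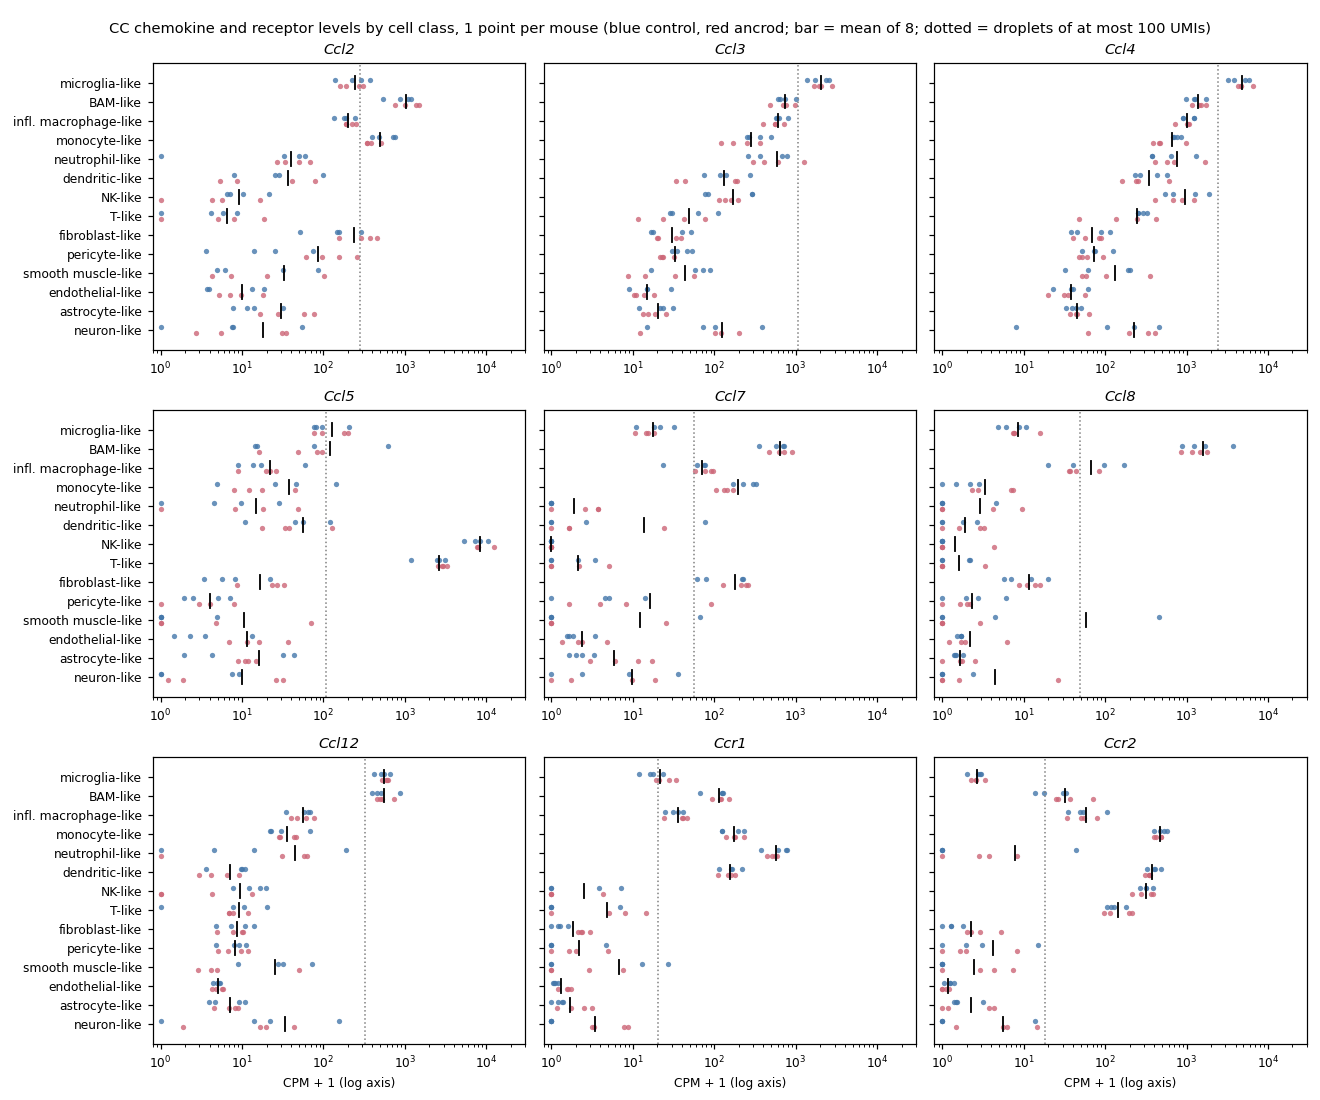
Levels of the 9 genes in 14 cell classes, as CPM plus 1 on a log axis, with 1 point per mouse (blue control, red ancrod), a black bar at the mean of 8 mice and a dotted line at the mean level in droplets of at most 100 UMIs. Ccl8 and Ccl7 are highest in BAM-like cells, Ccl3 and Ccl4 in microglia-like cells, Ccl5 in NK cell-like and T cell-like cells, Ccr1 in neutrophil-like cells and Ccr2 in monocyte-like cells.

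The microglia-like cells fell into 11 clusters, and ligand levels varied among them. The clusters were built from other genes of the same cells, so these values are a description without a test. In a cluster of 1223 cells led by the interferon-induced genes Ifit2, Ifit3 and Mx1, Ccl12 stood at 2359 ± 253 CPM, from 2040 to 2813 over 8 mice. The next cluster for Ccl12 reached 803 ± 143, and the lowest, 1764 cells led by Cd5l, Igf1 and Lpl, 138 ± 29. The same interferon-gene cluster held the highest microglial levels of Ccl5 (506 ± 147 CPM, against 151 ± 99 in the next cluster) and of Ccl4 (7290 ± 1117). For Ccl4 it overlapped with a cluster of 1983 cells led by Bcl2a1a, Il1a and Tnf, which stood at 6970 ± 1051 and had the highest Ccl3 (3007 ± 520).

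Ccl2 was also highest in the interferon-gene cluster (455 ± 102 CPM, from 319 to 616), which overlapped with the dividing cluster led by Mki67 and Top2a (390 ± 150, from 213 to 639.6), and lowest in a cluster led by P3h2 and Csmd3 (86.9 ± 42.1). Ccl3 varied by 2.98 times and Ccl4 by 2.99 times between the highest and the lowest cluster, against 17.1 times for Ccl12 and 10.6 times for Ccl5.

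**Figure D2:**
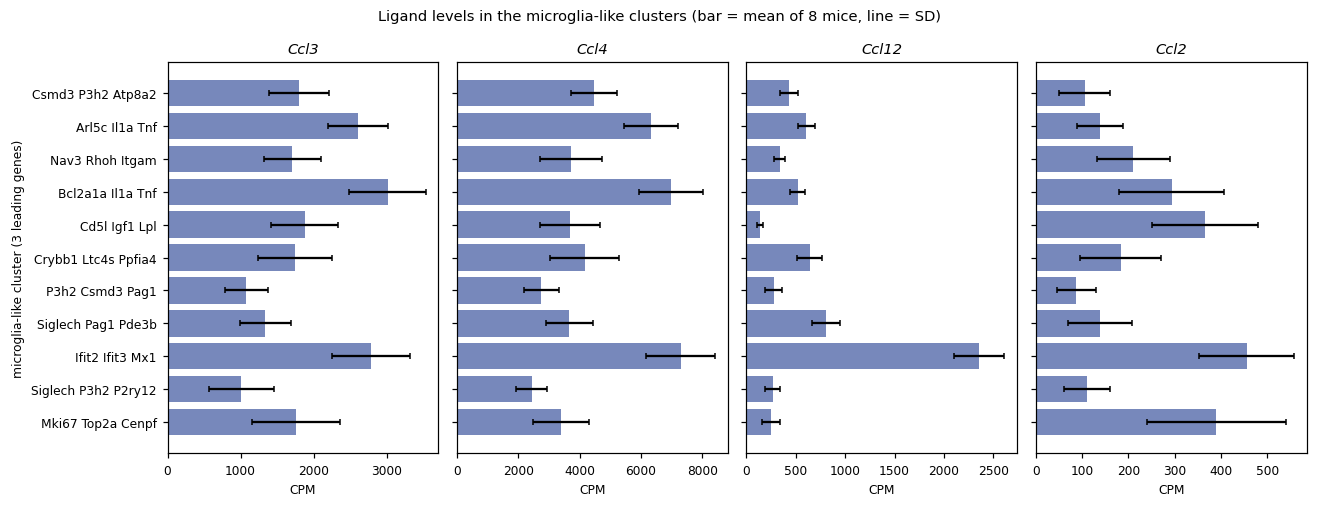
Levels of Ccl3, Ccl4, Ccl12 and Ccl2 in CPM in the 11 microglia-like clusters, named by 3 leading genes. Bars are means of 8 mice and lines their SD. Ccl12 is highest in the cluster led by Ifit2, Ifit3 and Mx1, at 2359 CPM, while Ccl3 and Ccl4 are spread more evenly.

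BAM-like cells, the macrophages of perivascular and meningeal spaces, had the highest levels of Ccl2, Ccl7 and Ccl8. Ccl8 stood at 1604 ± 941 CPM, with a lowest mouse at 845, a median of 1330 and a highest mouse at 3770. The next class, inflammatory macrophage-like cells, was at 65.2 ± 49.6, which is 24.6-fold lower. These 694 BAM-like cells were 1.31 ± 0.16% of the cells in control mice and 1.71 ± 0.37% in ancrod mice, yet they held 66.7 ± 8.2% of all Ccl8 UMIs. In smooth muscle-like cells, 263 of the 266 Ccl8 UMIs lay in 1 cell of control mouse 2, and the level of that class is therefore not read.

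Ccl7 stood at 633 ± 171 CPM in BAM-like cells, above the range of every other class. It was 195 ± 81 in monocyte-like cells, 176 ± 77 in fibroblast-like cells and 68.9 ± 22.9 in inflammatory macrophage-like cells. Microglia-like cells were at 16.7 ± 7.0, below the 55.7 ± 17.8 of free RNA. Ccl2 stood at 1043 ± 315 CPM in BAM-like cells, followed by monocyte-like cells (492 ± 162), microglia-like cells (244 ± 79), fibroblast-like cells (239 ± 135) and inflammatory macrophage-like cells (199 ± 38), and each class overlapped with its neighbour in this order. Free RNA held 279.6 ± 84.8 CPM of Ccl2.

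Ccl2 and Ccl7 UMIs tended to lie in the same cells. Of BAM-like cells with a Ccl2 UMI after thinning, 54.4 ± 7.4% also had a Ccl7 UMI, against 15.1 ± 4.3% of those without. In monocyte-like cells these shares were 36.8 ± 9.4% and 2.26 ± 1.68%, and in fibroblast-like cells 34.3 ± 10.6% and 10.8 ± 3.8%, with the same order in 8 of 8 mice in all 3 classes. Cells of 1 class can differ in state and quality, and these shares carry no test. Monocyte-like cells with a Ccl2 UMI had a Ccr2 UMI less often than the others (43.9 ± 2.7% against 51.8 ± 3.6%), also in 8 of 8 mice.

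Ccl5 was a lymphocyte transcript by level. It stood at 8396 ± 2129 CPM in the 221 NK cell-like cells and at 2631 ± 642 in the 515 T cell-like cells, without overlap. Microglia-like cells followed at 126 ± 58, a 21.0-fold lower level than T cell-like cells, and free RNA held 105.8 ± 32.8. Since microglia-like cells were so many, they nevertheless held 42.6 ± 8.5% of the Ccl5 UMIs, against 17.1 ± 8.0% in NK cell-like and 17.8 ± 5.7% in T cell-like cells. BAM-like cells of control mouse 4 had 619 CPM of Ccl5, where the other 7 mice had 13.3 to 95.5.

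Among the receivers, Ccr1 was highest in neutrophil-like cells at 578 ± 140 CPM, above the range of every other class. Monocyte-like (174 ± 43), dendritic cell-like (156 ± 34) and BAM-like cells (114 ± 25) followed with overlapping ranges, and inflammatory macrophage-like cells were at 34.6 ± 8.0. After thinning, 63.8% of neutrophil-like cells and 25.8% of monocyte-like cells had a Ccr1 UMI, against 0.12% of endothelial-like cells. Unthinned, these shares were 84.9%, 68.6% and 0.39%. Neutrophil-like cells held 8.10 ± 5.28% of the Ccr1 UMIs and microglia-like cells, at 20.5 ± 7.0 CPM against 19.5 ± 7.0 in free RNA, 29.6 ± 7.0%.

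Ccr2 was highest in monocyte-like cells at 471 ± 62 CPM, overlapping with dendritic cell-like cells (372 ± 56), which overlapped with NK cell-like cells (316 ± 64). T cell-like cells were lower (142.4 ± 44.7). After thinning, 49.9% of monocyte-like, 41.2% of dendritic cell-like, 38.9% of NK cell-like and 15.4% of T cell-like cells had a Ccr2 UMI, against 0.06% of endothelial-like cells. Unthinned, the shares were 83.1%, 80.4%, 61.8%, 31.7% and 0.24%. Monocyte-like cells held 50.6 ± 11.3% of the Ccr2 UMIs. In microglia-like cells 0.39% of thinned cells had a Ccr2 UMI. Inflammatory macrophage-like cells stood at 56.8 ± 23.5 CPM. Within them Ccr2 was 253 CPM in the dividing cluster of 370 cells and 16.4 in the cluster of 2525 cells led by Gpnmb and Lyz2. The spread of these cluster levels over mice is not given. No marker of the class was among the leading genes of the dividing cluster, and 9.73% of its cells were marked as doublets. It may hold other dividing cells.

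Ccr1 and Ccr2 UMIs met most often in monocyte-like cells, where 15.6% of thinned cells had both. Of monocyte-like cells with a Ccr1 UMI 60.4 ± 9.6% had a Ccr2 UMI, against 46.3 ± 3.7% of those without, higher in 7 of 8 mice. In inflammatory macrophage-like cells 1.25% had both. Of those with a Ccr1 UMI after thinning, 18.7 ± 10.4% had a Ccr2 UMI, against 5.73 ± 1.64% of those without, in the same order in 8 of 8 mice. In dendritic cell-like cells, with both in 11.8%, the shares were 40.1 ± 9.0% and 40.7 ± 7.6%, and Ccr2 was the more frequent in cells with Ccr1 in 3 of 8 mice.

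Likeness was ranked over the 112 sums of 14 classes in 8 mice, among 13240 genes with a mean of at least 10 CPM in some class. The cell type markers used to name clusters were left out, so they cannot appear in these ranks. The gene most like Ccl3 was Ccl4 (Pearson r = 0.942 of log2(CPM + 1)), and Ccl2 and Ccl7 were each the gene most like the other (r = 0.857). Next to Ccl3 came Mapkapk2 (0.892) and Fcgr3 (0.884), to Ccl4 Plek (0.902) and Hvcn1 (0.899), to Ccl2 Gm17268 (0.839) and Hexa (0.805), and to Ccl7 Gpx3 (0.808) and Rab3il1 (0.754). Ccl8 was most like the BAM genes Fcna (0.898), Cd209f (0.868) and Cd209g (0.840), and Ccl12 most like the complement genes C1qc (0.863) and C1qa (0.861) and Fcrls (0.857). Ccl5 was most like H2-Q7 (0.876), Ms4a4b (0.858) and Cd247 (0.856). For Ccr1 these were Ccl6 (0.941), Alox5ap (0.940) and Ptafr (0.934), and for Ccr2 Slamf7 (0.936), Kcnn4 (0.935) and Runx3 (0.920). The sums of 1 mouse share a library, so the values describe likeness and carry no p.

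**Figure D3:**
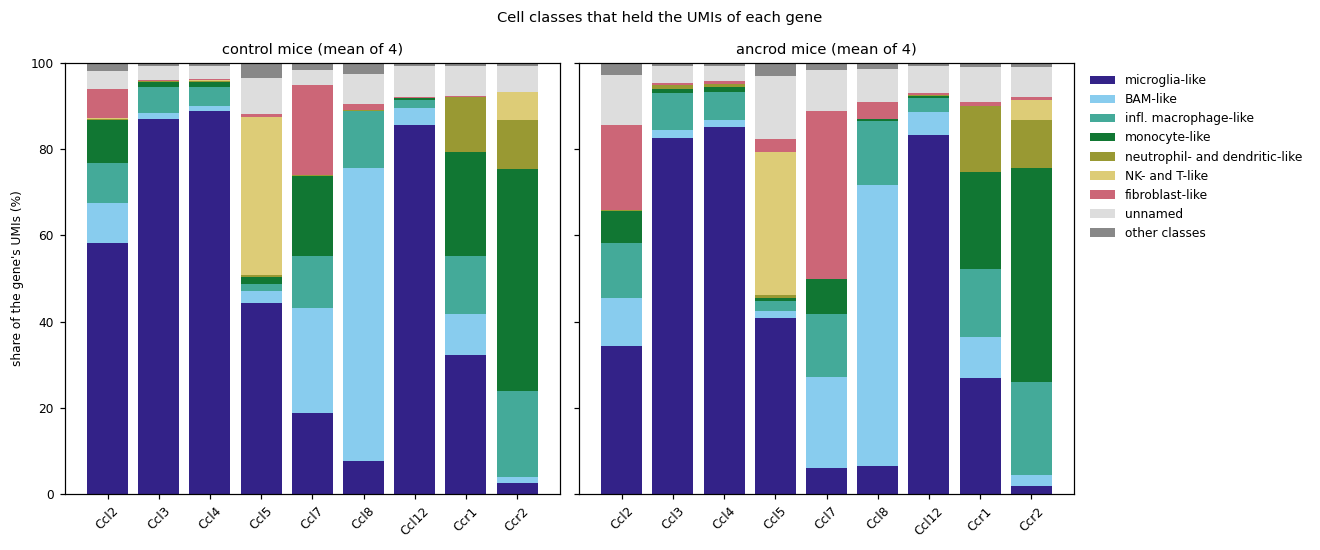
Share of the UMIs of each gene, in percent, held by each cell class, as the mean of 4 control mice (left) and 4 ancrod mice (right). Microglia-like cells hold 58.2% of Ccl2 UMIs in control and 34.3% in ancrod mice, and fibroblast-like cells 6.89% and 19.7%.

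Fibrinogen depletion left the levels of the 9 genes in all cells without a change that passed the test. With edgeR's quasi-likelihood test and Benjamini-Hochberg adjustment over all 16275 genes tested, 0 of the 9 members had an adjusted p below 0.05, where 0.0123% of all genes did (2 genes), and 0 members reached an unadjusted p of 0.05. DESeq2 also called 0 members, against 8.10% of all genes. The groups overlapped for 9 of 9 members, where they did not overlap for 11.7% of all genes.

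Ccl3 stood at 566, 1213, 1380 and 806 CPM in the control mice and at 709, 649, 776 and 887 in the ancrod mice. The control mice spanned the ancrod mice on both sides (log2 fold change -0.39 ± 0.27 SE, adjusted p = 0.444). Ccl4 stood at 1316, 2602, 3110 and 1727 CPM in control and at 1761, 1520.5, 1719 and 1959 in ancrod mice, with the same picture (-0.33 ± 0.26, adjusted p = 0.506). For both, control mice 2 and 3 were the high samples, and in batch 2 the ancrod mouse was the higher (log2 ratios of the means 0.14 for Ccl3 and 0.18 for Ccl4) while in batch 1 it was lower (-0.57 and -0.49).

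Ccl7 stood at 20.5, 53.7, 65.8 and 38.3 CPM in control and at 84.6, 41.5, 91.6 and 55.9 in ancrod mice. The fold change was the highest of the 9 (0.62 ± 0.38, adjusted p = 0.397), and it was 0.64 within batch 1 and 0.55 within batch 2. Ccl12 stood at 209, 217, 299.8 and 314 CPM in control and at 261, 191, 194 and 193 in ancrod mice (-0.31 ± 0.17, adjusted p = 0.344; -0.17 and -0.70 within batches). Ccl2, the main Ccr2 ligand, was at 188 ± 84 CPM in control and 205 ± 62 in ancrod mice (0.12 ± 0.36, adjusted p = 0.871).

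None of the other members passed the test either. Ccl5 was at 103.5 ± 33.9 and 99.8 ± 37.2 CPM (log2 fold change -0.05 ± 0.33) and Ccr2 at 30.3 ± 16 and 32.2 ± 12.8 (0.09 ± 0.40). Ccl8 was at 53.0 ± 39.4 and 41.3 ± 19.5 (-0.36 ± 0.57), and without control mouse 4, at 106 CPM, the value turned to 0.25. Ccr1 was at 22.7 ± 10.8 and 29.2 ± 11.9 (0.36 ± 0.40). The adjusted p lay between 0.646 and 0.942 for these 4. All 4 were of opposite sign in the batches, with log2 ratios of 0.41 for Ccl5, 0.23 for Ccl8, 0.46 for Ccr1 and 0.19 for Ccr2 in batch 1 and of -1.57, -1.36, -0.16 and -0.46 in batch 2.

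The share of cells with a UMI after thinning told the same. It was 11.8 ± 2.8% in control and 13.4 ± 3.7% in ancrod mice for Ccl2, 37.3 ± 5.6% and 35.9 ± 3.3% for Ccl3, 2.46 ± 0.75% and 3.75 ± 1.37% for Ccl7 and 3.65 ± 1.33% and 5.79 ± 2.23% for Ccr1. By a two-sided exact permutation test, the raw p was 0.143 or higher for each of the 9 and the adjusted p 0.611 or higher.

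The share of the Ccl2 and Ccl7 UMIs held by myeloid classes was compared as well. Myeloid classes held 76.7, 85.3, 93.9 and 92.5% of the Ccl2 UMIs in the control mice and 67.7, 67.3, 55.5 and 73.2% in the ancrod mice, and the groups did not overlap, as 1 of the 9 members. The mean difference was -21.2 percentage points. Myeloid shares were lower without overlap in ancrod mice for 3.59% of the 16230 genes with UMIs in every mouse, and the median difference over these genes was -4.86 points. The two-sided p of an exact permutation was 0.0286, the smallest value possible with 4 against 4 mice, and 0.257 after adjustment over the 9 members. Within batch 1 the difference was -21.8 points and in batch 2 it was -19.4. For Ccl7 the myeloid shares were 57.9, 67.8, 89.1 and 81.3% in control and 53.2, 58.4, 36.2 and 51.9% in ancrod mice, or -24.1 points (exact permutation p = 0.0571, adjusted 0.257), with -22.3 and -29.4 points within batches. Neither passed the adjusted threshold, and for the other 7 members the difference was between -4.56 and 0.58 points (exact permutation p of 0.343 or higher).

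The share was lower in ancrod mice by most in the microglia-like cells and higher by most in the fibroblast-like cells. Microglia-like cells held 53.5 to 62.5% of the Ccl2 UMIs in control and 29.6 to 44.7% in ancrod mice, and 17.1 to 22.7% and 5.73 to 6.84% of the Ccl7 UMIs. Neither pair of ranges overlapped, but the microglia-like share was lower without overlap for 27.8% of all genes, so the lack of overlap does not set the 2 genes apart. The median difference over all genes was -8.65 points. For Ccl2 the difference was -24.0 points, and 0.70% of genes had a lower one. For Ccl7 it was -12.6 points, and 14.2% of genes had a lower one. Mean levels in microglia-like cells lay below free RNA for both genes (Ccl2 244 against 279.6 CPM, Ccl7 16.7 against 55.7). The part of free RNA in these shares was not tested. Fibroblast-like cells held 1.04 to 14.2% and 12.9 to 33.9% of Ccl2 UMIs and 6.77 to 31.8% and 30.4 to 55.3% of Ccl7 UMIs, and these ranges overlapped. These class shares were picked from all classes for their difference and were not tested. The shares of recovered cells moved with them. Fibroblast-like cells were 3.09 ± 1.62% of cells in control and 6.60 ± 3.56% in ancrod mice, and microglia-like cells 41.2 ± 1.7% and 34.2 ± 6.2%. Endothelial-like cells were 20.1 ± 1.5% and 10.9 ± 4.0%. The paper saw a trend to more reactive fibroblasts and macrophages in the same libraries, and names easier dissociation after reduced fibrosis as the likely reason. By imaging at day 6 it reported fewer activated perivascular fibroblasts in ancrod mice. The shares here therefore do not give cell numbers in the tissue. The unnamed cells held 2.79 to 7.04% of Ccl2 UMIs in control and 8.11 to 14.2% in ancrod mice. Among them were a cluster of 2014 cells poor in UMIs that scored best as microglia (1074 control, 940 ancrod) and a dividing cluster of 342 that scored best as fibroblasts (75 control, 267 ancrod). The myeloid share counts named classes only and is no full split into myeloid and other cells.

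Within the 14 classes, 81 of the 126 pairs of a member and a class passed the filter on low counts, and the other 45 were not tested. None of the 81 passed the threshold (lowest adjusted p = 0.0744, edgeR), where 0.0512% of all gene and class pairs did (66 of 128953). An unadjusted edgeR p below 0.05 was found in 9 pairs. The share of all gene and class pairs at that level is not given here, so this count is not read as a result about the members. The 9 pairs were 2 each in astrocyte-like, monocyte-like and pericyte-like cells, and 1 each in microglia-like, endothelial-like and smooth muscle-like cells. In endothelial-like cells the 7 members tested had log2 fold changes from -0.38 to 2.04 (4 positive, 3 negative, lowest edgeR adjusted p = 0.557). By class, edgeR called 0.653% of the genes in pericyte-like cells, 0.0406% in T cell-like, 0.0102% in monocyte-like and 0.00781% in fibroblast-like cells, and 0% in the other 10 classes. DESeq2 called 2 pairs, against 0.237% of all pairs. In 37 pairs the fold change was positive and in 44 negative. The groups did not overlap in 1 pair, where this was so for 3.29% of all gene and class pairs.

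That pair was Ccl7 in monocyte-like cells, the freshly entered precursors of tissue macrophages. Ccl7 stood at 222, 297, 328 and 169.9 CPM in the control mice and at 167, 130.4, 141 and 105 in the ancrod mice. Control mouse 4 and ancrod mouse 1 were nearly equal (log2 fold change -0.90 ± 0.20, adjusted p = 0.363). The value of control mouse 1 rests on 1 cell, which held 210 of its 228 Ccl7 UMIs, and 5 of its 61 cells had a Ccl7 UMI (8.20%, against 16.3 to 23.6% in the ancrod mice). With the cell of most Ccl7 UMIs left out in every mouse, an alternative chosen after seeing the data, that mouse stood at 17.8 CPM, the other control mice at 268, 294 and 133 and the ancrod mice at 145.8, 118, 123 and 91.3. The groups then overlapped, and the log2 fold change was -0.63 ± 0.47 (adjusted p = 0.887). DESeq2 gave -0.90 with an adjusted p of 0.0057, and -0.58 with an adjusted p of 1.000 without those cells. With all cells it called 0.215% of the genes of this class, against 0.0102% by edgeR. The log2 ratio of the means was -0.95 within batch 1 and -0.70 within batch 2. Of all genes tested in monocyte-like cells, 3.53% had groups that did not overlap.

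Ccl2 in monocyte-like cells stood at 480, 764, 707 and 398 CPM in control and at 385, 346, 516 and 343 in ancrod mice, with overlap (-0.57 ± 0.20, adjusted p = 0.675; -0.65 and -0.21 within batches). In control mouse 1, 251 of 493 of these UMIs lay in 1 cell, and with the highest cell of every mouse left out it stood at 238 CPM, below the 259.5 to 468 of the ancrod mice (log2 fold change -0.49 ± 0.29, adjusted p = 0.842). Ccl3 stood at 490, 362, 252 and 263 CPM in control and at 120, 167, 255 and 366 in ancrod mice (-0.60 ± 0.31, adjusted p = 0.773), and it was lower in batch 1 and higher in batch 2. Ccr2 differed little in the class, at 493 ± 74 and 450 ± 48 CPM (-0.13 ± 0.12, adjusted p = 0.900).

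Other lists were summed in monocyte-like cells beside Ccl2 and Ccl7. The 12 immediate early genes, which respond within minutes to stimulation and also to tissue dissociation, summed to 6301 to 8016 CPM in control and 4434 to 5945 in ancrod mice without overlap, and 10 of the 12 had a negative fold change (0 passed the test, median -0.48 against 0.01 over all genes). The 6 BAM markers summed to 125 to 206 CPM in control and 199.8 to 349.9 in ancrod mice (4 of 4 tested higher). The 6 monocyte markers summed to 1363 to 3304 and 1105 to 2842 (6 of 6 lower). Of the markers tested, 4 of inflammatory macrophages were higher and 1 lower. For microglia 2 were higher and 4 lower, and for dendritic cells 1 was higher and 4 lower. In each of these lists the sums overlapped and 0 markers were called. Their part in the result was not tested.

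**Figure D4:**
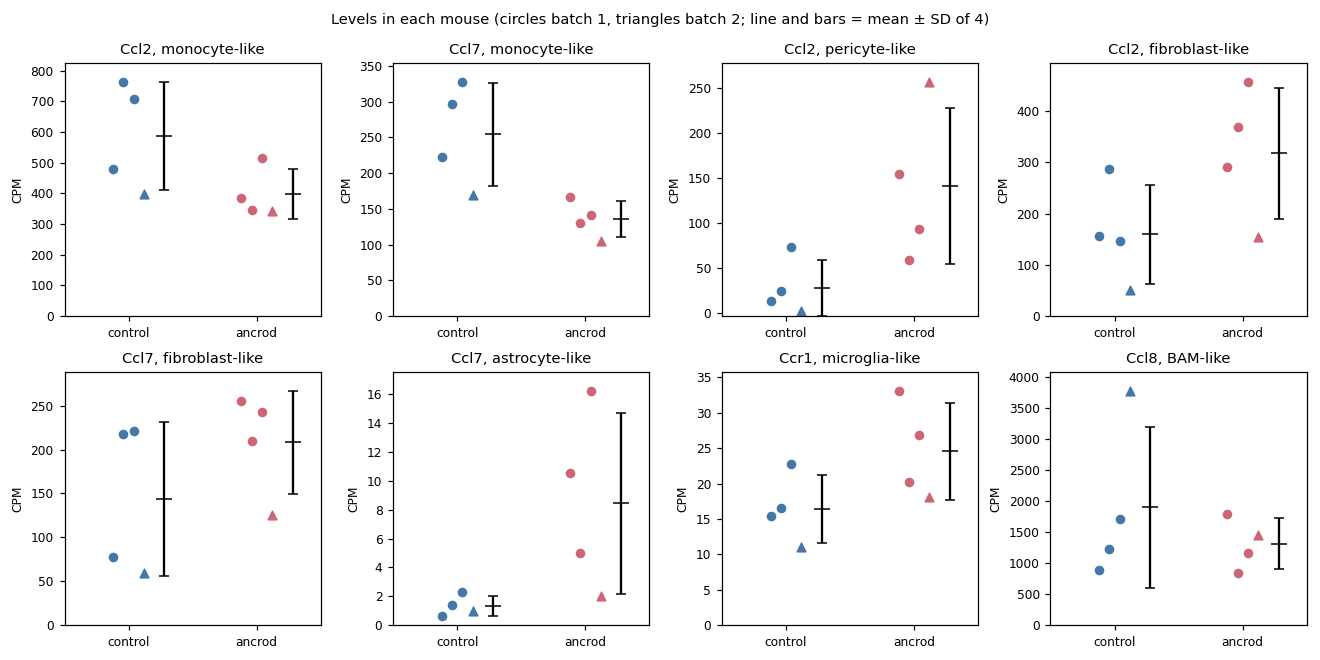
Level of Ccl2, Ccl7, Ccr1 or Ccl8, in CPM, in each mouse for 8 pairs of gene and class. Circles are mice of batch 1, triangles of batch 2, and the line with bars is the mean ± SD of 4 mice. For Ccl7 in monocyte-like cells the groups do not overlap, where 1 cell holds 210 of the 228 UMIs of control mouse 1, at 222 CPM, and Ccl2 in pericyte-like cells reaches 257.5 CPM in ancrod mouse 4.

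Pericyte-like cells, the contractile cells of capillaries, gave the lowest adjusted p of any member. Ccl2 stood at 13.2, 24.5, 73.2 and 2.62 CPM in control and at 154.6, 59.5, 94.0 and 258 in ancrod mice. Control mouse 3 lay above ancrod mouse 2 and the other control mice below all ancrod mice (log2 fold change 2.35 ± 0.57, adjusted p = 0.0744, with 0.653% of all genes of this class called). The log2 ratio was 1.47 within batch 1 and 6.62 in batch 2, where the control value rests on 3 UMIs. By edgeR the fold change was 3.36 with an adjusted p of 0.0247 without control mouse 3, and 2.63 with 0.0305 without ancrod mouse 2. These are the mice whose values made the groups overlap. Without any other single mouse the pair did not pass, and the lowest of these fold changes was 1.90. DESeq2 did not call the pair with all cells. Without the filter on low counts the fold change was 2.33 with an adjusted p of 0.0076. Without droplets marked as doublets it was 1.67 (adjusted p = 0.278).

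Few pericyte-like cells carried these UMIs. Of 719 such cells in control mice 42 had a Ccl2 UMI, 1.85 to 8.09% per mouse, and of 564 in ancrod mice 79 had one, 10.3 to 21.0% per mouse. After thinning the shares were 2.61 ± 1.74% and 5.23 ± 1.78%, against 1.23% in endothelial-like cells of all mice. In ancrod mouse 4, 116 of 215 Ccl2 UMIs lay in 1 cell, in ancrod mouse 1 61 of 152, in ancrod mouse 3 48 of 97, and in control mouse 3 43 of 72. An alternative chosen after seeing the data left out the cell with the most Ccl2 UMIs in every mouse. The control mice then stood at 10.3, 19.2, 29.9 and 1.76 CPM and the ancrod mice at 96.9, 41.2, 48.4 and 120.4. The groups did not overlap after this cut (log2 fold change 2.33 ± 0.47, adjusted p = 0.040 by edgeR and 0.0866 by DESeq2). With all cells, 6.88% of the genes of this class had groups that did not overlap. After the cut edgeR called 0.538% and DESeq2 1.63% of all genes of the class. The cut was made on the Ccl2 UMIs and not on each other gene's own. Neither the lost overlap nor the adjusted p of Ccl2 can therefore be set against those of other genes.

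In the same cells 61 genes passed the test, 0.653% of those tested, and a few of them belonged to the lists of inducers and immediate early genes. These lists were chosen with earlier results of these data known. This count rests on single mice, with 11 genes without control mouse 2, 15 without control mouse 1, 25 without control mouse 3, 21 and 19 without ancrod mice 1 and 3, and 176 without ancrod mouse 2. Of 9 tested inducers of CC chemokines 2 rose, the interferon-response factor Irf1 (38.9 ± 5.3 to 125.0 ± 42.8 CPM, log2 fold change 1.67 ± 0.23, adjusted p = 0.0051) and the NF-kB subunit gene Nfkb1 (0.82 ± 0.16, adjusted p = 0.032), and 7 did not pass. Of 12 immediate early genes 4 rose, with Egr1 (1.26 ± 0.23, adjusted p = 0.0241), Junb (1.25 ± 0.25, adjusted p = 0.0376) and Zfp36 (1.05 ± 0.22, adjusted p = 0.0418) changed most, and 8 did not pass. Their median log2 fold change was 0.97, against -0.01 over all genes. Of the 2 atypical receptors tested Ackr3, a scavenger of CXC chemokines, fell by 0.68 ± 0.14 on the log2 scale (adjusted p = 0.0491). Irf1 passed whichever mouse was left out (highest adjusted p = 0.048), whereas Nfkb1, Egr1, Junb, Zfp36 and Ackr3 each missed the threshold without at least 1 of the mice, with adjusted p up to 0.141, 0.122, 0.162, 0.163 and 0.205.

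Markers of fibroblasts moved with the pericyte-like result. The 6 fibroblast markers summed to 707 to 899 CPM in pericyte-like cells of control mice and to 1081 to 1656 in ancrod mice without overlap, 5 of 5 tested had a positive fold change and 1 passed the test. The 5 inflammatory macrophage markers summed to 13.2 to 83.3 and 21.3 to 40.7 CPM and the 6 microglia markers to 41.0 to 66.8 and 46.8 to 59.1, with overlap. No marker of these lists was at 0 in all 8 mice, and the part of other cells in the Ccl2 value was not tested. Ccl3, a microglial ligand, stood in pericyte-like cells at 33.8, 51.8, 45.7 and 29.6 CPM in control and at 22.4, 20.7, 31.0 and 21.6 in ancrod mice (log2 fold change -0.74 ± 0.22, adjusted p = 0.142), and free RNA held 1229 CPM of Ccl3 in control and 902 in ancrod mice.

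In fibroblast-like cells, the scar-forming cells of the lesion, Ccl2 stood at 156, 286, 146 and 50.9 CPM in control and at 290.3, 368, 457 and 154 in ancrod mice. Ancrod mice 1 to 3 were above all control mice and ancrod mouse 4 was not (log2 fold change 0.99 ± 0.47, adjusted p = 0.524, and 0.92 and 1.60 within batches). Ccl7 stood at 77.5, 218, 222 and 59.5 CPM in control and at 255, 210.1, 242.5 and 125 in ancrod mice (0.55 ± 0.42, adjusted p = 0.681). In these cells 12 of 12 immediate early genes had a positive fold change (median 0.35, 0 passed the test), and their sums were 6498 to 10731 CPM in control and 10623 to 12830 in ancrod mice. The 5 smooth muscle markers summed to 146 to 411 and 269 to 1165 CPM (4 of 4 tested higher, 0 called) and the 6 fibroblast markers to 24937 to 34644 and 20049 to 28898 (6 of 6 lower, 0 called). The 6 BAM markers summed to 10.4 to 17.2 and 10.6 to 31.5 CPM (5 of 5 tested higher, 0 called). The 5 inflammatory macrophage markers summed to 125 to 363 and 96.3 to 235 (3 higher, 1 lower, 0 called). The 6 microglia markers summed to 90.2 to 114 and 78.3 to 94.4 (1 higher, 5 lower, 0 called). All these ranges overlapped. The part of these differences in the Ccl2 and Ccl7 values was not tested.

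Astrocyte-like cells held little of either ligand. Ccl7 stood at 0.62, 1.39, 2.29 and 0.98 CPM in control and at 10.5, 5.00, 16.2 and 2.00 in ancrod mice, with overlap in mouse 4 of ancrod alone (2.93 ± 0.65, adjusted p = 1.000 by edgeR and 0.0121 by DESeq2, which called 0.0244% of the genes of this class). In ancrod mouse 3, 93 of 108 of these UMIs lay in 1 cell and in ancrod mouse 2 61 of 76, and without droplets marked as doublets, or without the highest cell of every mouse, Ccl7 no longer passed the filter on low counts. Ccl2 was at 15.3 ± 10.8 and 43.4 ± 27.3 CPM (1.50 ± 0.53, adjusted p = 1.000). The 6 fibroblast markers summed to 50.8 to 80.2 CPM in astrocyte-like cells of control and 77.3 to 110.8 of ancrod mice, with 5 of 5 tested higher and 0 called, and the 6 BAM markers to 3.38 to 5.03 and 4.92 to 6.12. No marker of these lists was at 0 in all mice, and their part in the Ccl7 and Ccl2 values was not tested.

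In the myeloid sources themselves no member passed the test. In microglia-like cells Ccl3 was at 2011 ± 562 and 2115 ± 495 CPM (0.07 ± 0.21), Ccl4 at 4532 ± 1215 and 5011 ± 999 (0.15 ± 0.19) and Ccl12 at 531 ± 96 and 582 ± 40 (0.13 ± 0.12), with adjusted p from 0.936 to 0.979. Ccl2 stood at 139, 286, 372 and 226 CPM in control and at 191, 161, 269 and 304 in ancrod microglia-like cells (-0.15 ± 0.28, adjusted p = 0.961), and without control mouse 3 the value was 0.09. Ccl7 stood at 9.85, 20.8, 31.4 and 17.1 CPM in control and at 13.6, 9.62, 17.0 and 14.5 in ancrod mice, with overlap (-0.54 ± 0.29, adjusted p = 0.936; -0.63 and -0.24 within batches). Ccr1 stood at 15.4, 16.6, 22.7 and 11.0 CPM in control and at 33.1, 20.2, 26.8 and 18.1 in ancrod microglia-like cells (0.58 ± 0.23, adjusted p = 0.936), near the 11.3 to 28.9 CPM of free RNA.

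In BAM-like cells Ccl2 was at 933 ± 295 and 1152 ± 335 CPM (0.30 ± 0.24) and Ccl7 at 587 ± 170 and 679 ± 184 (0.21 ± 0.22), each with an adjusted p of 0.993. Ccl8 stood at 889.5, 1218, 1705 and 3770 CPM in control and at 1796, 845, 1164 and 1443 in ancrod mice (-0.53 ± 0.36, adjusted p = 0.984). Control mouse 4 was the high sample, and without it the fold change was 0.04. Its 8595 Ccl8 UMIs came from 55 of 83 cells, the highest of them holding 967.

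In inflammatory macrophage-like cells Ccl2 was at 186 ± 45 and 212 ± 30 CPM (0.18 ± 0.16) and Ccl7 at 58.0 ± 24.7 and 79.8 ± 17.2 (0.44 ± 0.29), both with an adjusted p of 1.000. For each member the difference between these cells and microglia-like cells was compared between the groups. For Ccl7, the macrophage level exceeded the microglial level by 1.44 ± 0.45 on the log2(CPM + 1) scale in control and by 2.49 ± 0.47 in ancrod mice. The groups thus differed by 1.05 (two-sided exact permutation p = 0.0571, adjusted 0.386), with 1.45 in batch 1 and -0.13 in batch 2. For the other 8 members it lay between -0.62 and 0.37, and none passed the threshold. The microglial Ccl7 level used here lay below free RNA (16.7 against 55.7 CPM).

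The lymphocyte and granulocyte values also overlapped. Ccl5 in NK cell-like cells stood at 7355, 8425, 10385 and 5271 CPM in control and at 7874, 7602, 12365 and 7893 in ancrod mice (0.19 ± 0.19), and in T cell-like cells at 2476, 3091, 2656 and 1191 against 2948, 2887, 2538 and 3265 (0.31 ± 0.20), both with an adjusted p of 1.000. Ccr1 in neutrophil-like cells was at 631 ± 185 and 525 ± 64 CPM (-0.24 ± 0.25, adjusted p = 1.000). Ccr2 in dendritic cell-like cells was at 404 ± 64 and 339 ± 20 CPM (-0.26 ± 0.13, adjusted p = 0.848).

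**Figure D5:**
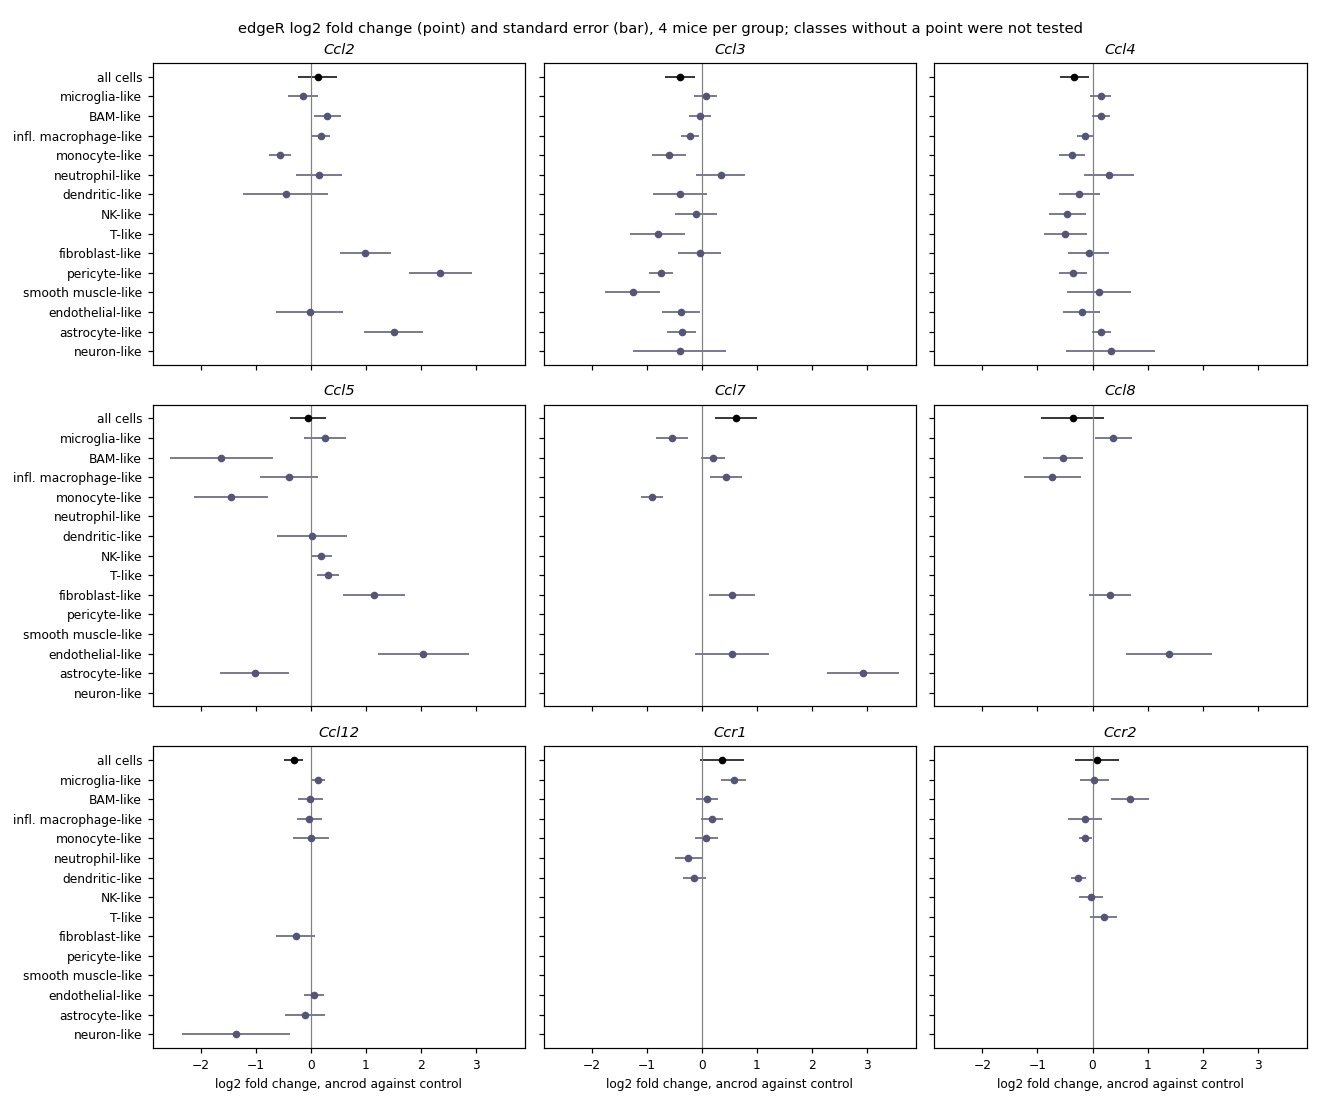
Log2 fold change of ancrod against control mice (points) with its standard error (bars) from edgeR for each of the 9 genes in all cells and in each class in which the gene passed the filter on low counts. Ccl2 is highest in pericyte-like cells, at 2.35, and is below 0 in monocyte-like cells, at -0.57. None of the values passed an adjusted p of 0.05.

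Of the other genes of the system, 12 of 13 further CC chemokines, 7 of 8 further CC receptors and 5 of 5 atypical receptors were tested in all cells, and 0 passed. So did 0 of 12 genes of receptor signalling, 0 of 12 inducers and 0 of 12 immediate early genes. Among those above 100 CPM in a class were Ccl6 in neutrophil-like (633 ± 315), monocyte-like (474 ± 197), BAM-like (415 ± 177) and dendritic cell-like cells (122 ± 48), and Ccl9 in monocyte-like (324 ± 92), BAM-like (229 ± 81) and dendritic cell-like cells (119 ± 45). Ccl19, which draws cells bearing Ccr7, stood at 130.2 ± 113.7 in pericyte-like cells. Ackr1, which binds chemokines on venules, stood at 199 ± 67 in endothelial-like cells.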

How the data were processed

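The authors aligned 10x Genomics 3′ v3.1 reads with Cell Ranger 7.1.0, which uses STAR, to the mouse genome GRCm39 (mm39) and deposited unfiltered UMI counts per gene and droplet for 8 mice, 1 library each. Reads of near-identical genes can be split or lost in this counting. From these counts, droplets with at least 2000 UMIs and under 20% mitochondrial UMIs were kept, doublets included. Cells were clustered (3000 variable genes, 20 components, 20 neighbours, leidenalg 0.10.2, resolution 2, seed 1) without 65 chemokine and chemokine receptor genes, and clusters were named "X-like" from marker lists, of which 3 genes were not among the counted genes. Lymphoid and dendritic clusters (1579 cells) were clustered again at resolution 1. The members and lists were chosen with earlier results of these data known. Part of the naming was decided with the clusters in view, including the second clustering: a cluster stayed unnamed when markers of another class led it, when under 3 markers were detected, when its best score was within 0.05 of the next, when over 50% of its cells were doublets, or when its cells were poor in UMIs with no marker leading. Doublets were scored with simulated pairs and marked at 0.8% per 1000 cells (2144 droplets).

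UMIs were summed per mouse and class and tested with edgeR 4.0.16 (filterByExpr, TMM, quasi-likelihood test, R 4.3.3) in all genes of a class, with Benjamini-Hochberg adjustment and a threshold of 0.05. SE is the standard error of the log2 fold change. Shares and differences per mouse were tested by exact permutation over 70 arrangements. To compare shares of cells with a UMI, each cell was thinned to 2000 UMIs, which left out no cell. On simulated counts edgeR recovered 71% of genes changed by 1 on the log2 scale in all cells (16275 genes, 8 false calls) and 85% in microglia-like cells (13151 genes, 7 false calls). The simulated spread followed the trend over genes of similar level and not each gene's own. These rates need not hold for the members, whose SE in all cells was 0.17 to 0.57. Pericyte-like, monocyte-like, fibroblast-like and astrocyte-like cells were not simulated. Named genes were the 9 members, genes of the other lists past the threshold (at most 3 per direction and list), other CC genes above 100 CPM, and the 3 genes most alike outside the cell type markers. A result that this rule would name is not reported here. Alternatives were DESeq2 1.42.0, other size factors, no filter, the replicate number or batch as a term, stricter droplets, no doublets, a coarser clustering, leaving out each mouse and, for 4 pairs and added after seeing the data, leaving out the highest cell of every mouse. Promoter stretches were read from GRCm39 with GENCODE vM39. Mice are separate animals.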

Additional observations from a re-analysis of the deposited data

Results flagged for a closer look

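In 4 of 68 groups of 4 mice, 1 mouse lay far from the other 3, which chance gives in about 1 of 20 groups. Ccl12 over all cells was at 261 CPM in ancrod mouse 1, where the other ancrod mice were at 191 to 194. Ccl3 in pericyte-like cells was at 31.0 CPM in ancrod mouse 3, against 20.7 to 22.4. Ccl5 in NK cell-like cells was at 12365 CPM in ancrod mouse 3, against 7602 to 7893. Ccr2 in dendritic cell-like cells was at 309 CPM in ancrod mouse 2, against 348 to 350.5.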

How the results depend on the processing

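Over 66 results and 970 values under other settings, 922 kept their direction and their side of the threshold, 36 turned direction (in 16 results), 7 passed the threshold where the result had not, and 5 were counts that moved by more than 1.5 times. None of the values that turned was called in the first place, and the cause was not tested for any of them. Without thinning, the difference in the share of cells with a UMI was 0.12 points for Ccl3 and 0.81 for Ccl4. The difference in the myeloid share of UMIs was -0.15 points for Ccr2 with at least 4000 UMIs and under 10% mitochondrial UMIs and -0.13 for Ccl12 with doublets removed. In batch 1 alone it was 1.38 for Ccl5, 1.90 for Ccl8 and -1.90 for Ccr2. The difference between inflammatory macrophage-like and microglia-like cells for Ccl12 was 0.092 with doublets removed and 0.0025 in batch 1 alone.

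The number of pairs of member and class past the threshold was 0 with edgeR and 2 with DESeq2 (Ccl7 in astrocyte-like and monocyte-like cells). Without the filter on low counts it was 2 (Ccl2 in pericyte-like and Ccl8 in smooth muscle-like cells, where 1 cell of control mouse 2 held 263 of that mouse's 264 UMIs). With the replicate block it was 1, Ccl2 in pericyte-like cells (log2 fold change 2.36, edgeR adjusted p = 0.0364), and the block changed no other call of a member. The replicate numbers were not taken to pair the mice, since same-numbered mice did not deviate together (correlations of their deviations from the group means -0.557, -0.315, -0.0554 and 0.217 for numbers 1 to 4), and they share a number only. Over all genes edgeR called 2 in all cells, DESeq2 1316, edgeR with the block 0 and with batch as a term 3. In pericyte-like cells these counts were 61, 173, 186 and 137, in monocyte-like cells 1, 21, 2 and 1 and in fibroblast-like cells 1, 73, 0 and 0. Without 1 mouse edgeR called 0 to 1 gene in all cells (1 without ancrod mouse 2, 0 without each of the others), 11 to 176 in pericyte-like, 1 to 2 in monocyte-like and 0 to 2 in fibroblast-like cells.

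Leaving out the cell with the most UMIs of the gene in every mouse, chosen after seeing the data, ended the DESeq2 call of Ccl7 in monocyte-like cells (adjusted p = 1.000), left Ccl7 in astrocyte-like cells untested and gave Ccl2 in pericyte-like cells an edgeR adjusted p of 0.040.

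Leaving out 1 mouse at a time gave 0 to 1 pairs past the threshold. The pair was Ccl2 in pericyte-like cells, without control replicate 3 (log2 fold change 3.36, edgeR adjusted p = 0.0247) or without ancrod replicate 2 (2.63, 0.0305). For the share of cells with a UMI the range was -3.82 to 0.12 points for Ccl3. For the myeloid share it was -8.42 to 2.13 for Ccl5, -5.26 to 0.049 for Ccl8, -0.56 to 1.43 for Ccl12 and -1.78 to 2.09 for Ccr2. For the difference between inflammatory macrophage-like and microglia-like cells it was -0.32 to 0.053 for Ccl12 and -0.16 to 0.16 for Ccr2. Log2 fold changes in all cells ranged from -0.084 to 0.39 for Ccl2, -0.25 to 0.20 for Ccl5, -0.72 to 0.25 for Ccl8 and -0.18 to 0.53 for Ccr2. Within classes they ranged from -0.090 to 0.21 for Ccl3 and -0.35 to 0.089 for Ccl2 in microglia-like, -0.77 to 0.045 for Ccl8 in border-associated macrophage-like and -0.011 to 0.36 for Ccl5 in NK cell-like cells.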
